A study of Homo sapiens with 6 samples.

Results

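The liprins are a family of cytoplasmic scaffold proteins encoded by 6 human genes, and all 6 symbols were found among the 19395 genes of the count table. PPFIA1, PPFIA2, PPFIA3 and PPFIA4 encode liprin-alpha1, liprin-alpha2, liprin-alpha3 and liprin-alpha4, and PPFIBP1 and PPFIBP2 encode liprin-beta1 and liprin-beta2. The genes were taken by symbol. The family was chosen by the measured fall of PPFIA4, one of the steepest in the comparison described here, so its difference is given as a description without a p-value. The other members were added because of their family name.

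Liprins carry coiled coils in their amino-terminal part and SAM domains, which bind other proteins, in their carboxy-terminal part. Liprin-alpha proteins bind the LAR-type receptor tyrosine phosphatases and are best known at the presynaptic active zone, where they help to place the machinery of vesicle release. Outside neurons, liprin-alpha1 and liprin-beta1 sit near focal adhesions in a cortical complex with ERC1, LL5-beta (PHLDB2) and KANK proteins, which anchors microtubules at the cell edge. Liprin-beta proteins pair with liprin-alpha proteins. PPFIA4 also stands in published lists of genes induced by low oxygen.

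Polyadenylated RNA was sequenced from 6 libraries of cells labelled DLD-1, an established human colorectal adenocarcinoma line. In 3 libraries, labelled oeTNFRSF12A, overexpression of the TWEAK receptor TNFRSF12A had been induced with doxycycline at 0.1 µg/mL for 48 h. The 3 oeControl libraries are labelled WT and untreated, so receptor overexpression and doxycycline cannot be told apart, and whether the controls carry a construct is not given in the labels. The labels name no promoter, clone or separate culture, so the spread behind every p-value is that among these libraries and may be technical.

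Library totals were 18154839 to 18406885 counts. TNFRSF12A had 1133 to 1305 counts per oeTNFRSF12A library and 365 to 423 per oeControl library. The labelled tissue was only partly borne out by its markers. Of 16 colorectal epithelial markers 11 stayed under 1 CPM (read counts scaled to a common library size with TMM factors) in all libraries, and CDX1, CEACAM5 and CEACAM6 had 0 counts throughout. EPCAM had 0 to 3 counts per oeTNFRSF12A library and 3 to 4 per oeControl library, while KRT8, KRT18, CDH1 and ELF3 were expressed. Of 9 mesenchymal markers 7 were above 1 CPM in all libraries, and the 9 summed to 6065 to 6300 CPM in oeTNFRSF12A and 6044 to 6355 CPM in oeControl libraries, ranges that overlap. Of these 9 markers 3 rose, 2 fell and 2 of the tested ones did not pass. The name DLD-1 is used below only as the label. Between the groups, 42.3% of the 12758 tested genes passed an adjusted p under 0.05 (edgeR, quasi-likelihood; Benjamini-Hochberg over all tested genes), 21.2% higher and 21.1% lower in oeTNFRSF12A.

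Of the 6 liprins, 5 were expressed and tested, and they did not move together. PPFIBP1 and PPFIBP2 rose, PPFIA3 fell, PPFIA4 was far lower in oeTNFRSF12A, and PPFIA1 did not pass the test. PPFIA4, the gene that led to the family, is not counted among the calls. Of the 4 tested members other than PPFIA4, all but PPFIA1 were called, beside 42.3% of all tested genes. Apart from PPFIA4, only PPFIBP2 reached a change of at least 1.5-fold. Of all tested genes 5.71% were called with such a fold. None of the 4 tested members other than PPFIA4 overlapped between the groups in CPM. This was also the case for 51.3% of all tested genes. In bulk RNA, fewer cells expressing a gene and less of its RNA per cell cannot be told apart.

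PPFIA4 (ENSG00000143847.15) spans 203026498 to 203078740 of chromosome 1, plus strand, in the GRCh38 annotation of GENCODE release 29, with 13 annotated transcripts of at most 35 exons. It had 75, 77 and 72 counts in the oeTNFRSF12A libraries, against 414, 428 and 393 counts in the oeControl libraries. All 3 oeTNFRSF12A libraries lay far below every control, and the values within each group were close. In CPM the gene averaged 4.06 ± 0.16 in oeTNFRSF12A and 22.8 ± 1.03 in oeControl (SD, n = 3 each), a log2 fold change of -2.49 (SE 0.09), which is a level 5.61-fold lower (95% interval 4.92 to 6.39). Among all tested genes, 5 had a lower fitted log2 fold change, and 0.047% had fallen at least 5-fold. No annotated gene overlaps PPFIA4 in GENCODE release 29.

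PPFIA3 (ENSG00000177380.13; chromosome 19, 49119389 to 49151026, plus strand), a liprin-alpha known mainly from brain synapses, was the other alpha member to fall. Its counts were 126, 157 and 156 in oeTNFRSF12A and 201, 203 and 217 in oeControl libraries. The lowest value was that of oeTNFRSF12A replicate 1, and the groups did not overlap. The gene averaged 7.95 ± 0.93 CPM in oeTNFRSF12A and 11.4 ± 0.44 CPM in oeControl, a log2 fold change of -0.53 (SE 0.10, n = 3 each) with an adjusted p of 1.09e-04 (edgeR quasi-likelihood test). That is 1.44-fold lower (95% interval 1.25 to 1.65).

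PPFIA1 (ENSG00000131626.18; chromosome 11, 70270700 to 70385312, plus strand) encodes the broadly expressed liprin-alpha1, which acts in cell spreading and migration and whose gene is often amplified in tumours together with its neighbour CTTN. It had 1073, 1082 and 1097 counts in oeTNFRSF12A and 1124, 1070 and 1083 counts in oeControl libraries. In CPM the values were 58.6, 58.96 and 59.1 in oeTNFRSF12A and 62.4, 59.2 and 59.6 in oeControl, so the groups lay side by side and missed overlapping by a narrow margin. The log2 fold change was -0.04 (SE 0.04, 95% interval -0.12 to 0.05), with an adjusted p of 0.519 (edgeR). The interval allows a change from a 1.09-fold fall to a 1.04-fold rise. Exons of PPFIA1 share 549 bp and 141 bp with antisense gene models that have no row in the table.

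PPFIA2 (ENSG00000139220.16; chromosome 12, 81257975 to 81759553, minus strand), the liprin-alpha2 gene, had 0 counts in all 6 libraries. A count of 0 over a group, with a floor of 3 counts, allows a level of up to 0.0543 CPM in oeTNFRSF12A and 0.0553 CPM in oeControl, counting error only. No fold can be given. ACSS3, an acyl-CoA synthetase gene on the opposite strand, shares 1686 bp of exon with PPFIA2 and had 48 to 63 counts in oeTNFRSF12A and 88 to 95 in oeControl libraries, so reads were assigned to one partner of this pair and none to the other.

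PPFIBP1 (ENSG00000110841.13; chromosome 12, 27523431 to 27695564, plus strand) encodes liprin-beta1, which binds the calcium-binding protein S100A4. It had 1367, 1272 and 1306 counts in oeTNFRSF12A and 1013, 1073 and 1052 counts in oeControl libraries. Every oeTNFRSF12A library was above every control. The means were 71.4 ± 2.80 CPM in oeTNFRSF12A and 57.8 ± 1.58 CPM in oeControl, a log2 fold change of 0.30 (SE 0.04, n = 3 each; 1.16-fold to 1.31-fold higher by the 95% interval) with an adjusted p of 4.35e-06 (edgeR).

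PPFIBP2 (ENSG00000166387.12; chromosome 11, 7513298 to 7657127, plus strand), the liprin-beta2 gene, was lower in abundance and rose more. Its counts were 149, 167 and 159 in oeTNFRSF12A and 95, 77 and 105 in oeControl libraries. The controls varied more than the oeTNFRSF12A libraries, with a coefficient of variation of 5.64% in oeTNFRSF12A and 15.2% in oeControl, but stayed below all of them. The means were 8.60 ± 0.48 CPM in oeTNFRSF12A and 5.10 ± 0.77 CPM in oeControl, a log2 fold change of 0.75 (SE 0.12, n = 3 each; 1.43-fold to 1.99-fold higher by the 95% interval) with an adjusted p of 1.20e-05 (edgeR).

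**Figure D1:**
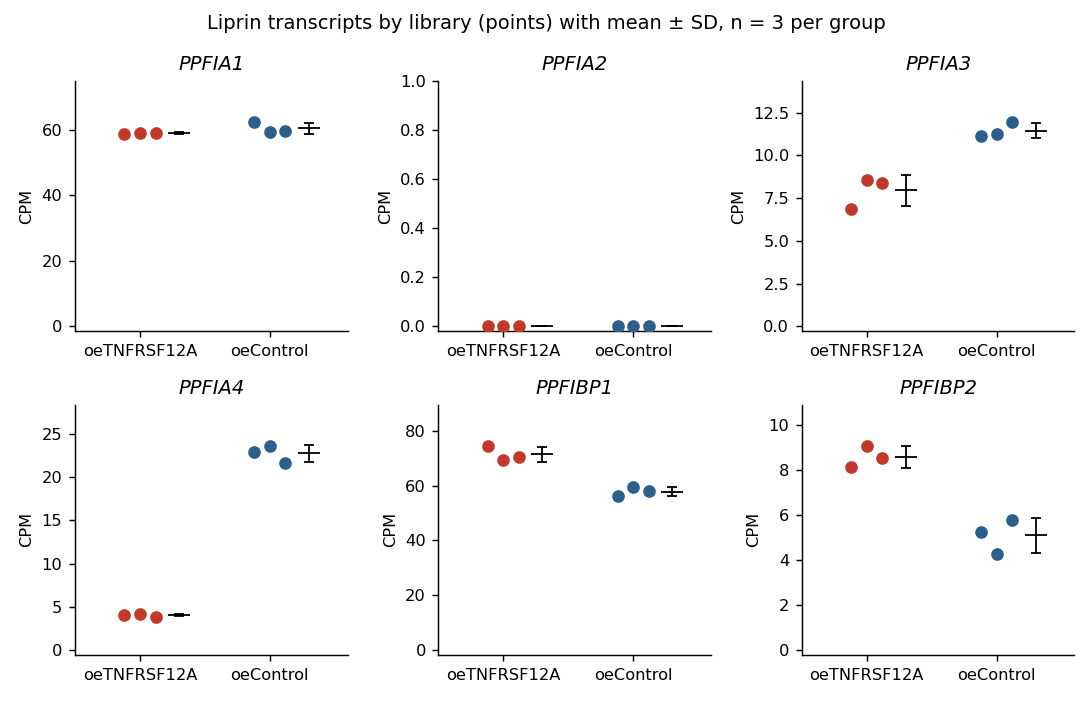
CPM (y axis, a separate scale from 0 in each panel) of the 6 liprin genes in the 3 oeTNFRSF12A (red) and 3 oeControl (blue) libraries; points are libraries and black bars the mean ± SD. PPFIA4 sits near 4 CPM in oeTNFRSF12A and 23 CPM in oeControl, PPFIBP1 and PPFIBP2 are higher in oeTNFRSF12A, and PPFIA2 is at 0.

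The promoter sequences of the gene that fell most and of the members that rose are shown because hypoxia-responsive genes carry the core motif ACGTG or GCGTG, to which hypoxia-inducible factors bind. They are RefSeq windows (GRCh38.p14) from 250 bases before to 50 after an annotated start, plus strand, 5′ to 3′, for PPFIA4 at chr1:203026241-203026540, PPFIBP1 at chr12:27523956-27524255 and PPFIBP2 at chr11:7513749-7514048, the most upstream of its 5 listed starts. Capitals mark matches to ACGTG or GCGTG on either strand.
PPFIA4: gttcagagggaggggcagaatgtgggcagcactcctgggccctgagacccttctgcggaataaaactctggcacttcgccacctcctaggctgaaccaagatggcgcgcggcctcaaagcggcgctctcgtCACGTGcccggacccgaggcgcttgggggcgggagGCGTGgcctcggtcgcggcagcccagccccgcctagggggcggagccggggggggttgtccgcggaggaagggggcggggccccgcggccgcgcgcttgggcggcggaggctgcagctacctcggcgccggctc
PPFIBP1: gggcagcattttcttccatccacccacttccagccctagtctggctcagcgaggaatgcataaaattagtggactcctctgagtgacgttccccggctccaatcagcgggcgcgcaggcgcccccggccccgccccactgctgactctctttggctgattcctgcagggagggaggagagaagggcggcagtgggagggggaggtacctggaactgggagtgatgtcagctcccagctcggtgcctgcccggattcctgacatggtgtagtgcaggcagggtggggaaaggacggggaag
PPFIBP2: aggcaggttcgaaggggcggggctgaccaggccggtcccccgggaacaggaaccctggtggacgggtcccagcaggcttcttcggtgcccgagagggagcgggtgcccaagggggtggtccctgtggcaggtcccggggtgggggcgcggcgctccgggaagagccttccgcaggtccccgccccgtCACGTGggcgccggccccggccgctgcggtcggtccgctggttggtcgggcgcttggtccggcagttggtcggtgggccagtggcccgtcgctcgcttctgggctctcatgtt
The PPFIA4 window held 3 matches. A pair of them overlaps as the palindrome CACGTG, 119 bases before the start, and the other, GCGTG, lies 84 bases before it. The PPFIBP2 window held the same palindrome 63 bases before its start, and the PPFIBP1 window held no match. Of 35116 RefSeq promoter windows of this length, 48.45% held ACGTG or GCGTG on either strand and 21.4% held ACGTG, so a match in a window is common. PPFIA1 had 2 matches and PPFIA3 1. PPFIA2, with 0 counts in every library, had 3 matches in 1 of its 3 windows, and 1 of the other 4 windows of PPFIBP2 held 1 match. A loose form of the NF-kB site, GGG and CC with 5 bases of any kind between them, was found 4 times in the PPFIA4 window, 2 times in that of PPFIBP1 and 6 times in that of PPFIBP2 on both strands together, overlapping matches included, and in 58.7% of all windows.

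Because longer genes collect more reads, levels were compared between liprins only per length, as TPM, a level per exon length scaled to the same total in each library, computed with the length of all annotated exon bases. In oeTNFRSF12A the order was PPFIBP1 (24.4 ± 1.06 TPM), PPFIA1 (20.1 ± 0.075), PPFIA3 (4.91 ± 0.56), PPFIBP2 (3.50 ± 0.20) and PPFIA4 (1.67 ± 0.076). In oeControl it was PPFIA1 (20.5 ± 0.39 TPM), PPFIBP1 (19.6 ± 0.71), PPFIA4 (9.31 ± 0.44), PPFIA3 (7.04 ± 0.30) and PPFIBP2 (2.07 ± 0.31; SD, n = 3 each). Neighbours in these orders did not overlap between libraries, except PPFIA1 and PPFIBP1 in oeControl, whose ranges were 20.2 to 20.9 and 18.9 to 20.3 TPM. PPFIA4 thus stood last of the expressed members in oeTNFRSF12A and above PPFIA3 and PPFIBP2 in oeControl.

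As a share of the summed level per length of the family, PPFIA4 made up 2.93% to 3.17% in oeTNFRSF12A libraries and 15.1% to 16.5% in oeControl libraries. PPFIBP1 made up 43.4% to 46.6% in oeTNFRSF12A and 32.5% to 34.4% in oeControl, and PPFIBP2 6.06% to 6.80% and 2.95% to 4.01%. PPFIA1 held 36.5% to 37.0% in oeTNFRSF12A and 34.3% to 36.1% in oeControl. The sum over the family was 54.5 ± 0.47 TPM in oeTNFRSF12A and 58.5 ± 0.49 TPM in oeControl (SD, n = 3 each), without overlap, so the total changed far less than its makeup. With the longest annotated transcript as the length, the sum was 75.2 to 76.96 TPM in oeTNFRSF12A and 76.8 to 77.8 TPM in oeControl, and these ranges overlapped. The PPFIA1 share by that length, 34.2% to 34.8% in oeTNFRSF12A and 34.0% to 35.7% in oeControl, overlapped as well. That length also put PPFIBP2 (7.24 TPM) above PPFIA3 (5.03 TPM) in oeTNFRSF12A and PPFIBP1 (28.7 TPM) above PPFIA1 (26.8 TPM) in oeControl, so these neighbours have no fixed order.

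**Figure D2:**
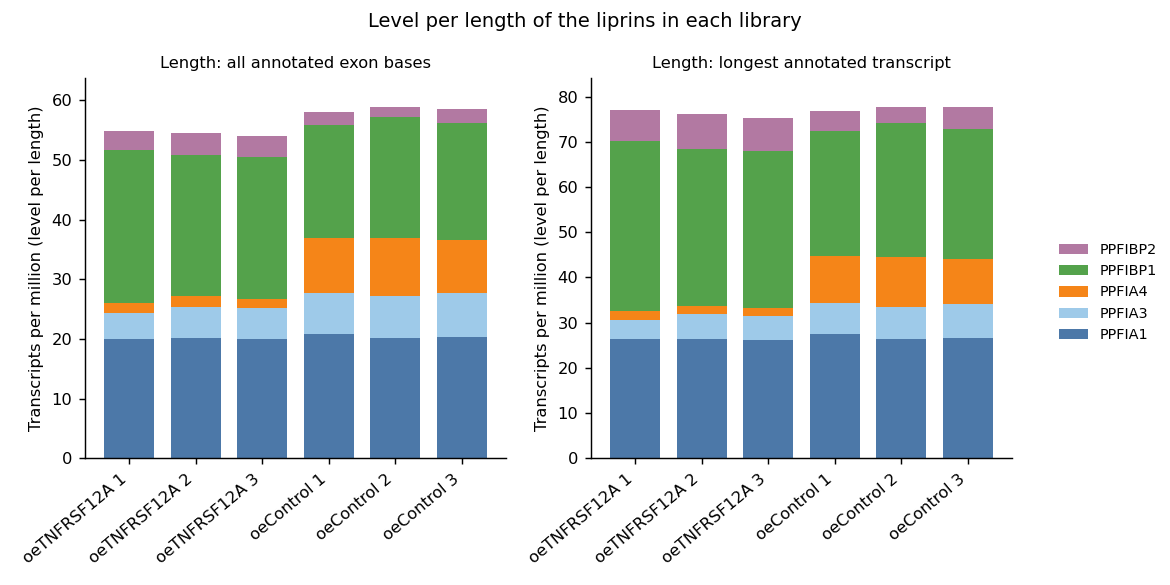
TPM (y axis, from 0) of the 5 expressed liprins, stacked, in each oeTNFRSF12A and oeControl library, with all annotated exon bases (left) or the longest transcript (right) as the length. The PPFIA4 block is 1.67 TPM high on average in oeTNFRSF12A and 9.31 TPM in oeControl on the left, and the PPFIBP1 block is taller in oeTNFRSF12A in both panels.

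Ratios between members inside a library need no scaling factor. The log2 ratio of PPFIBP1 to PPFIA1 counts was 0.35, 0.23 and 0.25 in oeTNFRSF12A and -0.15, 0.0040 and -0.042 in oeControl libraries. The ratio of PPFIBP2 to PPFIA1 was higher in oeTNFRSF12A by 0.80 on the log2 scale and that of PPFIA3 to PPFIA1 lower, with a difference of -0.50. The beta members also differed from each other, with a log2 ratio of PPFIBP2 to PPFIBP1 of -3.05 ± 0.14 in oeTNFRSF12A and -3.51 ± 0.25 in oeControl. Ratios to PPFIA1, which did not pass, largely restate the calls of the genes set over it. Among single tested genes 51.3% did not overlap between the groups, and this share was not computed for ratios. None of the 4 ratios given here overlapped between the groups. Each gave a two-sided exact permutation p of 0.1 (0.1 adjusted over the 4), the smallest that 3 against 3 libraries allow, so this test could not pass 0.05. For PPFIA4 to PPFIA1 the log2 ratio was -3.86 ± 0.061 in oeTNFRSF12A and -1.41 ± 0.076 in oeControl (SD, n = 3 each).

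The liprin transcripts were compared with each other in short stretches, since near-identical stretches can let reads be assigned to the wrong gene. None of the 31-base words in the annotated transcripts of any member occurred in those of another member, for example 0 of 9895 for PPFIA4. Read in the sense direction, PPFIA4 and PPFIA3 shared 0 such words with any other annotated gene, PPFIBP2 shared 0.109%, PPFIA1 1.12% and PPFIBP1 4.72%.

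A list of 56 genes held liprin partners, other members of the complexes they join, and KAZN, a relative of the liprins. Of these genes 42 could be tested, and 8 rose, 13 fell and 21 did not pass. The share called, 21 of 42, is near the 42.3% of all tested genes. The median log2 fold change was -0.07 for the listed genes and 0.0032 for all tested genes. UNC13C, APBA1, KANK3 and TANC2 were called with at least 1.5-fold, and the first 3 of them had few counts.

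The LAR-type receptor phosphatases, the classical binding partners of liprin-alpha, were all expressed. PTPRF, which encodes LAR itself, fell to 218 CPM in oeTNFRSF12A, against 241 CPM in oeControl (log2 fold change -0.15, SE 0.03, adjusted p = 7.02e-04, edgeR). PTPRD had a log2 fold change of -0.11 (adjusted p = 0.0302, edgeR) and PTPRS one of 0.06 (adjusted p = 0.240, edgeR). The PTPRD call was lost in 5 of 13 alternatives (adjusted p 0.0157 to 0.154 over all of them), namely with library totals alone, with DESeq2, and when oeTNFRSF12A replicate 2 (-0.10) or oeControl replicate 2 (-0.10) or 3 (-0.09) was left out, which leaves 1 fall in this group.

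Most genes of the presynaptic active zone were near silent. Of 13 scaffold genes 8 stayed under 1 CPM in all libraries, among them PCLO, RIMBP2 and TSPOAP1 with at most 1 count in any library, and 5 could be tested. UNC13B, which encodes a vesicle priming factor also present outside neurons, rose to 60.8 ± 2.32 CPM in oeTNFRSF12A, against 47.6 ± 0.81 CPM in oeControl (log2 fold change 0.35, SE 0.05, adjusted p = 8.82e-07, edgeR). UNC13C had 18, 21 and 16 counts in oeTNFRSF12A and 12, 7 and 11 counts in oeControl libraries (0.85, adjusted p = 0.0339, edgeR), and this call was lost in 5 of 12 alternatives (adjusted p 0.0293 to 0.165), namely with DESeq2 and when oeTNFRSF12A replicate 1 (0.86) or 2 (0.73) or oeControl replicate 2 (0.65) or 3 (0.92) was left out. ERC1 (134.9 CPM in oeTNFRSF12A and 142 CPM in oeControl, -0.07), BSN (-0.38) and RIMS3 (-0.12) did not pass. RIMS3 passed in 1 of 13 alternatives, without oeTNFRSF12A replicate 3 (-0.16, adjusted p = 0.0365, against a range of 0.0365 to 0.246).

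Markers of neurons were looked at because liprin-alpha proteins are best known there. Of 12 such markers 6 stayed under 1 CPM in all libraries, GAP43 and ELAVL3 with 0 counts, and the others included the tubulin gene TUBB3. Their summed level was 357 to 370 CPM in oeTNFRSF12A and 398 to 407 CPM in oeControl libraries. The 16 colorectal epithelial markers summed to 395 to 413 CPM in oeTNFRSF12A and 432 to 436 CPM in oeControl, and 6 kidney epithelial markers to 172 to 185 CPM in oeTNFRSF12A and 187 to 198 CPM in oeControl. Whether these shifts have a part in the values of the liprins was not tested.

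CASK, a scaffold kinase that binds liprin-alpha, rose to 111 ± 1.01 CPM in oeTNFRSF12A, against 94.98 ± 2.66 CPM in oeControl (log2 fold change 0.22, SE 0.04, adjusted p = 2.46e-05, edgeR). Its adaptor partner APBA1, also called Mint1, was scarce and fell, with 14, 13 and 13 counts in oeTNFRSF12A and 34, 25 and 26 in oeControl libraries (-1.11, SE 0.26, adjusted p = 1.38e-03, edgeR). Of the 7 genes of this complex the other 5 did not pass. CASKIN1 (-0.62) passed in 1 of 12 alternatives, without oeControl replicate 1 (-0.80, adjusted p = 0.0271, against a range of 0.0271 to 0.420), and shares 950 bp of exon with TRAF7 on the opposite strand.

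In the cortical microtubule complex 1 of 10 tested genes rose and 4 fell, with a median log2 fold change of -0.05. Of all tested genes 21.2% were called higher and 21.1% lower. KANK2, which links talin to this complex, fell to 122 ± 0.95 CPM in oeTNFRSF12A, against 156 ± 4.21 CPM in oeControl (log2 fold change -0.36, SE 0.03, adjusted p = 7.47e-09, edgeR). PHLDB2, encoding LL5-beta, fell to 95.99 ± 3.84 CPM in oeTNFRSF12A, against 112 ± 0.67 CPM in oeControl (-0.22, adjusted p = 4.53e-05, edgeR). Its relative PHLDB1, named after its values were seen, had a log2 fold change of -0.15 (adjusted p = 1.11e-03, edgeR). KANK3 had 3, 4 and 4 counts in oeTNFRSF12A and 13, 15 and 14 in oeControl libraries (-1.96, SE 0.42, adjusted p = 5.30e-04, edgeR). Its exons overlap those of the ribosomal protein gene RPS28, on the opposite strand, over 365 bp. KANK1, named after its values were seen, did not pass (0.17, adjusted p = 0.223, edgeR). CLASP2, which stabilises microtubule plus ends, rose to 60.3 ± 0.42 CPM in oeTNFRSF12A, against 50.4 ± 1.89 CPM in oeControl (0.26, adjusted p = 4.51e-05, edgeR). TLN1, the talin gene, stood at 411 CPM in oeTNFRSF12A and 408 CPM in oeControl (0.01, adjusted p = 0.754, edgeR).

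Among 17 tested partners in adhesion, transport and signalling 4 rose and 6 fell, beside 21.2% higher and 21.1% lower calls among all tested genes. TANC2, a scaffold that binds liprin-alpha, fell to 34.2 ± 2.55 CPM in oeTNFRSF12A, against 51.6 ± 1.16 CPM in oeControl (log2 fold change -0.60, SE 0.05, adjusted p = 2.14e-09, edgeR). PXN, the focal adhesion adaptor paxillin, had a log2 fold change of -0.22 and S100A4 one of -0.28 (adjusted p = 6.15e-06 and 3.56e-05, edgeR). S100A4, the partner of liprin-beta1, had 905, 838 and 910 counts in oeTNFRSF12A and 1092, 1036 and 1036 in oeControl libraries. A link between its fall and the rise of PPFIBP1 was not tested. The 4 that rose were the formin gene DIAPH1 (0.18), TANC1 (0.17), the exchange factor gene TRIO (0.11) and the motor gene KIF1C (0.10), named after their values were seen. DIAPH1 and TANC1 passed in all 13 alternatives. KIF1C lost its call with DESeq2 and without oeTNFRSF12A replicate 2 or oeControl replicate 1 or 2, and TRIO without oeTNFRSF12A replicate 2 or oeControl replicate 3. KAZN, a relative of the liprins, had 8, 18 and 15 counts in oeTNFRSF12A and 14, 6 and 7 in oeControl libraries and did not pass (adjusted p = 0.247, edgeR).

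**Figure D3:**
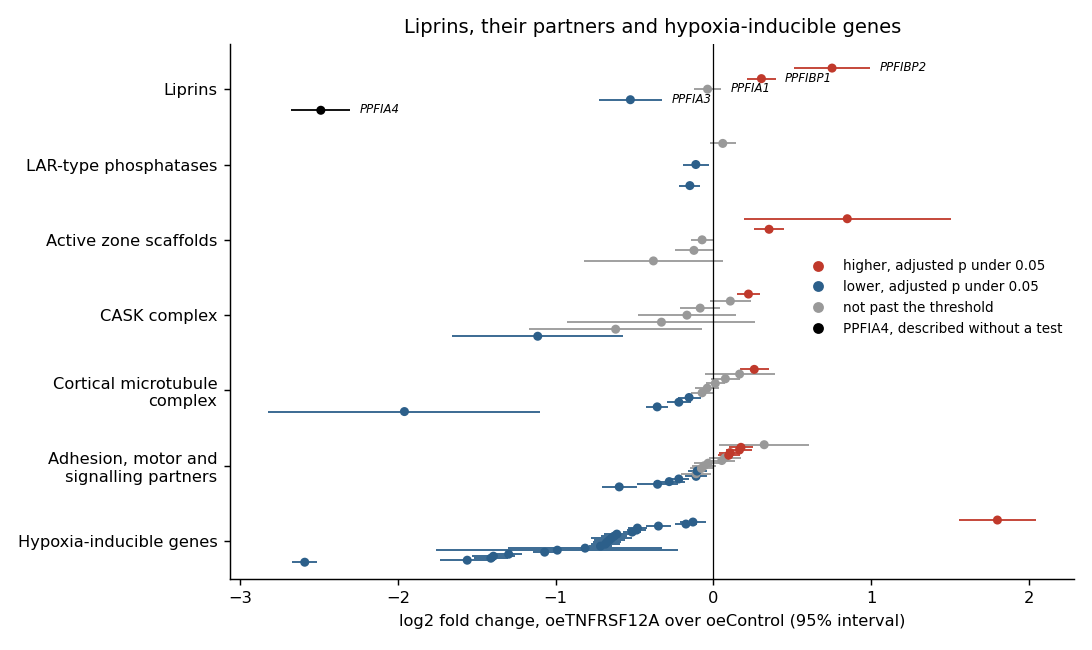
Log2 fold change of oeTNFRSF12A over oeControl (x axis, points with 95% intervals) for the 5 tested liprins and the tested genes of each partner group and of the hypoxia-inducible list, coloured by the call at an adjusted p under 0.05. PPFIA4 at -2.49 lies below the points of all partners, most of which lie close to 0, and beside the lowest of the hypoxia-inducible genes. The interval of the scarce partner KANK3 (-2.82 to -1.10) reaches past it.

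Hypoxia-inducible genes were lower in oeTNFRSF12A with 1 exception, and PPFIA4 lay among the lowest of them. Of 22 tested genes on a list of 25 that does not hold PPFIA4, 21 fell and EGLN3 rose, with a median log2 fold change of -0.67, against 21.1% lower calls among all tested genes. The fall of this gene group was known when the list was written, and it is given here to place PPFIA4. NDRG1, at -2.59, was the list's gene closest to PPFIA4. EGLN3, the exception, rose strongly, with a log2 fold change of 1.801 (adjusted p = 8.64e-12, edgeR). It had 197, 192 and 221 counts in oeTNFRSF12A and 60, 49 and 63 in oeControl libraries. PFKFB4, a regulator of glycolysis, had 13.9 CPM in oeTNFRSF12A and 36.4 CPM in oeControl (log2 fold change -1.39), and the mitophagy receptor gene BNIP3 had 101.0 CPM in oeTNFRSF12A and 166 CPM in oeControl (-0.71). Of the scarce genes, ANKRD37 (-0.99) lost its call in 7 of 12 alternatives and HK2 (-0.81) in 2 of 12, with DESeq2 and without oeTNFRSF12A replicate 2 (-0.57). Between 19 and 21 genes of the list fell in each of the 13 alternatives.

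The tested genes whose centred log2 CPM over the 6 libraries lay nearest to PPFIA4 were NDRG1, ITGB3, SEC14L5, LOX and IGFBP3. Their root mean square distance from PPFIA4 was 0.082, 0.0995, 0.18, 0.23 and 0.31 on the log2 scale, in that order. NDRG1 had 910, 913 and 952 counts in oeTNFRSF12A and 5430, 5664 and 5327 in oeControl libraries. ITGB3, the integrin beta-3 gene, had 133, 119 and 127 counts in oeTNFRSF12A and 759, 779 and 618 in oeControl libraries, and its exons overlap a same-strand gene model, which has no row in the table, over 2266 bp. SEC14L5 had 44, 42 and 49 counts in oeTNFRSF12A and 221, 196 and 213 in oeControl libraries. With 2 groups of libraries this measure mostly ranks genes by how similar their fall was. Leaving out a library kept at least 4 of the 5 genes. IGFBP3 was the gene lost, without oeControl replicate 1 and without oeTNFRSF12A replicate 1, 2 or 3.

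**Figure D4:**
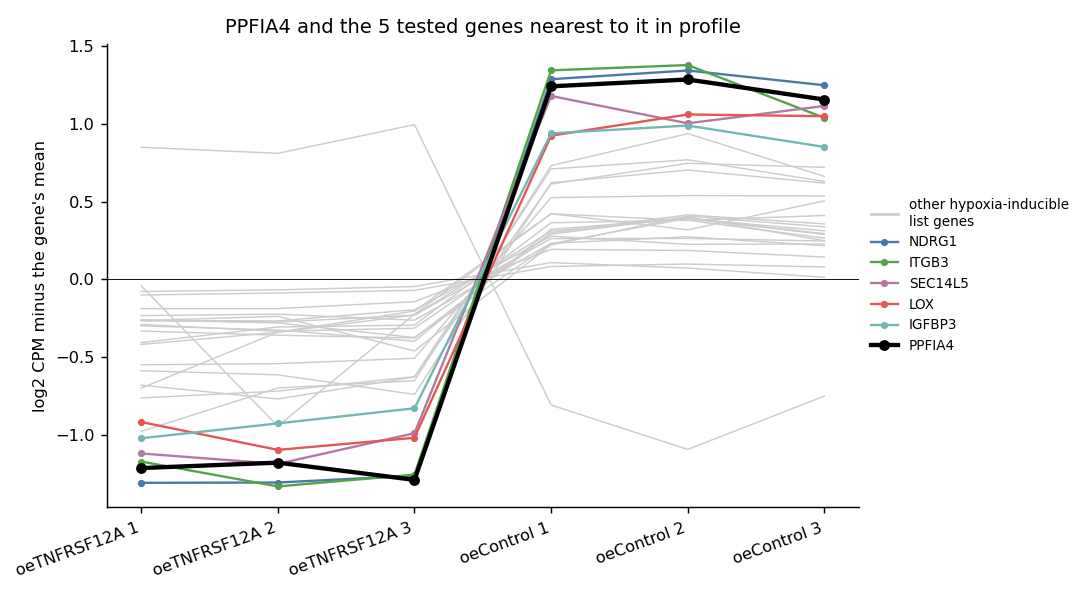
Log2 CPM minus the gene's own mean (y axis) in each oeTNFRSF12A and oeControl library for PPFIA4 (black), the 5 tested genes nearest to it (coloured) and the other tested genes of the hypoxia-inducible list (grey); lines join the values of 1 gene. PPFIA4 and NDRG1 run almost together, below 0 in the oeTNFRSF12A libraries and above 0 in the oeControl libraries, and the single grey line running the other way is EGLN3.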

How the data were processed

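RNA was extracted with TRIzol and polyadenylated RNA was made into libraries, per the labels' protocols. RSEM 1.3.1, Bowtie2 2.4.5 and HISAT2 2.2.1 are listed in the submitters' processing notes, with GRCh38 and hg38 as builds. Which annotation, strand setting or filter the authors used is not stated. Values are estimated counts per gene symbol as deposited, in whole numbers. One unnamed row, with 0 counts, was left out. The members and lists were chosen with earlier results of these data known.

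Counts were tested in edgeR 4.0.16 (R 4.3.3): filterByExpr (minimum count 10), TMM factors, robust quasi-likelihood fit with group as the only term, 12758 genes tested, Benjamini-Hochberg adjustment over all of them, call at an adjusted p under 0.05. CPM used TMM-scaled library sizes. Lengths, positions and overlaps came from GENCODE release 29. The rule for naming took the liprins, the 3 genes of each list with the lowest p, genes called with at least 1.5-fold, the 5 genes nearest to PPFIA4 and the flanking genes; not every hypoxia-inducible gene it names is printed. Alternatives were other scaling factors, other filters, DESeq2 1.42.0, a replicate block and leaving out each library. The fitting was tested on simulated counts. Replicates differed by more than sampling noise (chi-square 1.63 to 3.43 per gene), so all 6 libraries were counted. PCR copies are not independent molecules, so floors cover counting error only.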

Additional observations from a re-analysis of the deposited data

How the results depend on the processing

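PPFIA1, PPFIA3, PPFIBP1 and PPFIBP2 kept their direction and their side of the threshold in all 13 alternatives, and PPFIA4, described without a test, kept its direction. The log2 fold change ranged from -2.52 to -2.46 for PPFIA4, from -0.58 to -0.43 for PPFIA3 (largest adjusted p 1.27e-03), from 0.27 to 0.32 for PPFIBP1 (1.08e-04), from 0.64 to 0.85 for PPFIBP2 (2.46e-04) and from -0.05 to -0.01 for PPFIA1 (smallest adjusted p 0.385), adjusted over all genes in edgeR or DESeq2. Leaving out 1 library at a time set both ends of these ranges except the upper end for PPFIBP1. The count of called genes, 5402, was 3926 with the DESeq2 test and 4506 to 5616 in the others. Replicate numbers are shared between the groups, but the correlations of same-numbered libraries' deviations were -0.13, 0.088 and 0.090, and oeTNFRSF12A replicates 1 and 3 correlated best with another number, so the numbers were not taken to pair libraries. With the replicate block 5396 genes were called, and the log2 fold changes were -0.04 for PPFIA1, -0.53 for PPFIA3, -2.49 for PPFIA4, 0.30 for PPFIBP1 and 0.75 for PPFIBP2. Of the flanking genes, CTTN (0.0032 in the fit reported) changed sign with upper-quartile factors (-0.0087) and a minimum count of 50 (-0.0044) and ranged from -0.022 to 0.027 without 1 library; CCDC59 ranged from -0.069 to 0.026 without 1 library. The cause was not tested. APBA1, KANK3 and UNC13C had at most 34 counts in any library, so their values carry a large counting error. No value is printed for scarce genes with a minimum count of 50, which removes them.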

Other observations

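Genes flanking the liprins were looked up to see whether a whole neighbourhood moved. CYB5R2, a reductase gene 7972 bp from PPFIBP2 and on the opposite strand, rose to 7.77 ± 0.36 CPM in oeTNFRSF12A, against 4.75 ± 0.96 CPM in oeControl (log2 fold change 0.71, SE 0.13, adjusted p = 6.87e-05, edgeR, n = 3 each), beside 0.75 for PPFIBP2. Its counts were 150, 139 and 140 in oeTNFRSF12A and 75, 106 and 77 in oeControl libraries. OLFML1, on the other side of PPFIBP2, had at most 3 counts in any library. TMEM183A, 1649 bp from PPFIA4, stood at 104 CPM in oeTNFRSF12A and 98.3 CPM in oeControl (0.08, adjusted p = 0.062, edgeR; 0.0203 with library totals alone and 0.0356 without oeTNFRSF12A replicate 3, against a range of 0.0203 to 0.181), and MYOG, on the other side, had 0 counts. FADD and CTTN, which flank PPFIA1, had log2 fold changes of 0.12 and 0.0032 and did not pass (adjusted p = 0.0979 and 0.946, edgeR). Of the genes that flank the other liprins, LIN7A and CCDC59 beside PPFIA2 did not pass, and C19orf73, HRC, SMCO2 and REP15 had at most 10 counts in any library.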
